A study of Mus musculus with 7 samples.

Results

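Ketone body handling in the mouse kidney was described here by 4 genes, Bdh1, Oxct1, Acat1 and Slc16a1, each found by its symbol in the gene table. All 4 were listed among 17537 genes and all 4 were among the 13976 genes tested. RNA had been sequenced from renal tissue of C57BL/6 mice, which the labels describe as male and 8 to 10 weeks old, in 7 polyA-selected, strand-specific libraries. That age cannot be the age at sampling, which followed 22 weeks of hyperglycemia. There were 3 nondiabetic controls, called C, with replicate numbers 2, 8 and 9. They were age matched and given the citrate solvent. The 2 untreated diabetic libraries (DM-22, replicates 1 and 2) came from mice given streptozotocin, a toxin of the insulin-producing beta cells, at 60 mg/kg on 5 days and kept hyperglycemic for 22 weeks. The 2 treated libraries (DM+SGLT2i, replicates 1 and 2) came from mice made diabetic in the same way and given dapagliflozin, an inhibitor of the glucose transporter SGLT2, in drinking water (25 mg/kg) from week 16 on, for 6 weeks. The study asked which renal transcripts stay altered when blood glucose is lowered late. Beta cell loss by a toxin models insulin deficiency, and no library of controls given the inhibitor was analysed here, so a response to the drug cannot be told apart from a response to lower glucose.

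Ketone bodies are made in liver mitochondria from fatty acids. Acetoacetate is formed first, and BDH1 reduces it to beta-hydroxybutyrate. Other organs, the kidney among them, take ketone bodies up through monocarboxylate transporters such as MCT1 (the product of Slc16a1), turn beta-hydroxybutyrate back to acetoacetate with BDH1, attach coenzyme A from succinyl-CoA with OXCT1 (SCOT) and split acetoacetyl-CoA into acetyl-CoA with ACAT1. Hepatocytes lack OXCT1 and so export what they make. SGLT2 inhibitors are known to raise circulating ketone bodies.

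The values are given as CPM, the reads of a gene scaled to a common library total and then by the TMM method, which evens out differences in composition between libraries. The libraries held 46456125 to 56541594 reads on these genes, so that 1 read was worth 0.0180 to 0.0231 CPM. The least covered member, Slc16a1, still had 1151 to 4273 reads in each library. C replicate 2 stood apart from the other controls: its Pearson r with them across tested genes was 0.939 and 0.935, against 0.991 between C replicates 8 and 9, and its r with DM+SGLT2i replicate 2 was 0.985. Its summed proximal tubule markers were 5654 CPM, against 15820 and 13699 CPM in the other controls, and its summed tubular injury markers (Havcr1, Lcn2, Krt20) were 108 CPM, against 2.97 CPM in each of them. All 6 proximal tubule markers were present in every library, the lowest value being 169 CPM (Slc5a2 in C replicate 2). DM+SGLT2i replicate 1 had 895 CPM of summed adipose markers (Adipoq, Plin1, Cfd, Cidec), against 1.13 to 26.8 CPM in the other 6 libraries, with all 4 markers above 0 in each. The r between the DM-22 libraries was 0.957, and that between the DM+SGLT2i libraries 0.982. The limma comparisons of the members with controls are therefore given with all 3 controls and without C replicate 2. Those of other genes are given with all 3 controls unless stated. Nothing in the labels states that the libraries of a group came from separate mice, so that p-values measure the spread between these libraries. In bulk tissue, fewer cells of a type and less RNA per cell cannot be told apart.

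Levels were compared between the members per kilobase of exon sequence. Oxct1 was the most abundant, with 385 ± 46.2 CPM per kilobase (SD, n = 7 libraries), followed by Acat1 with 148 ± 61.5, Bdh1 with 41.6 ± 10.5 and Slc16a1 with 10.3 ± 6.28 CPM per kilobase. The ranges did not overlap between any neighbours in this order, from 318 to 441 for Oxct1, 90.9 to 243 for Acat1, 29.2 to 52.2 for Bdh1 and 5.52 to 22.3 CPM per kilobase for Slc16a1. The order therefore held in each of the 7 libraries.

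The spread over the 7 libraries ran opposite to the level, except that Acat1 was more abundant than Bdh1 and also varied more. Slc16a1 varied most, with its highest library 4.04-fold above its lowest, and 94.6% of the tested genes had a smaller SD on the log2 scale. Acat1 varied 2.68-fold, and 86.2% of the tested genes had a smaller SD. Bdh1 varied 1.79-fold (70.4%) and Oxct1 1.39-fold (27.1%). The transporter was the least abundant and most variable member, and Oxct1 was the most abundant and the steadiest.

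**Figure D1:**
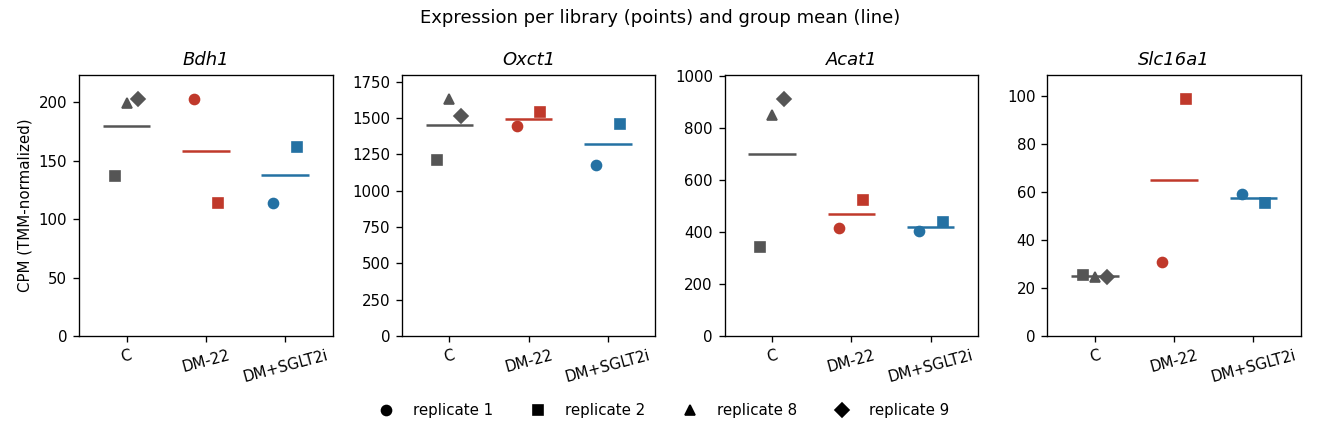
Expression of Bdh1, Oxct1, Acat1 and Slc16a1 in each library, in TMM-normalized CPM on axes that start at 0; points are libraries, marker shapes give replicate numbers and horizontal lines are group means of C (3 libraries), DM-22 (2) and DM+SGLT2i (2). Only for Slc16a1 do the 4 diabetic libraries, from 30.8 to 98.8 CPM, all lie above the 3 controls at 24.4 to 25.4 CPM; for Acat1, C replicate 2 at 342 CPM lies below every other library.

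Slc16a1 (ENSMUSG00000032902) lies on the plus strand of chromosome 3 at chr3:104638668-104658462 (GRCm38). It encodes MCT1, a proton-coupled carrier of lactate, pyruvate and ketone bodies. The 3 controls had nearly the same value, 25.4, 24.4 and 24.6 CPM in replicates 2, 8 and 9. The DM-22 libraries had 30.8 and 98.8 CPM, and the DM+SGLT2i libraries 59.3 and 55.5 CPM. All 4 diabetic libraries were above all 3 controls, and C replicate 2 did not stand apart from the other controls for this gene. The DM-22 libraries differed widely from each other, and both DM+SGLT2i libraries lay between them. Markers of tubule segments also differed between the DM-22 libraries, replicate 1 having 12527 CPM and replicate 2 having 2948 CPM for the thick ascending limb (Umod, Slc12a1, Cldn16), 348 and 1570 CPM for the distal convoluted tubule (Slc12a3, Pvalb) and 6315 and 15008 CPM for the proximal tubule. In C these sums spanned 3417 to 5775, 741 to 1044 and 5654 to 15820 CPM, and in DM+SGLT2i 4486 to 6631, 1014 to 1152 and 9908 to 10068 CPM. Single proximal tubule markers went both ways. Slc34a1 had 2937 CPM in DM-22 replicate 1 and 9452 CPM in replicate 2, and Slc5a2, Slc22a6 and Lrp2 were also higher in replicate 2. Cubn (549 and 520 CPM) and Slc7a13 (681 and 603 CPM) were lower there. Collecting duct markers were mixed as well, with Aqp2 lower (640 and 167 CPM) and Scnn1g (40.1 and 68.8 CPM) and Atp6v1g3 higher in replicate 2. The part of tubule segments in the Slc16a1 values was not tested.

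The group means were 24.8 ± 0.524 CPM in C (SD, n = 3), 64.8 ± 48.1 CPM in DM-22 (n = 2) and 57.4 ± 2.66 CPM in DM+SGLT2i (n = 2). In limma's test across all genes, the log2 fold change from C was 1.14 in DM-22 (SE 0.43, 95% interval 0.10 to 2.18, adjusted p = 0.804) and 1.19 in DM+SGLT2i (SE 0.43, 0.15 to 2.23, adjusted p = 0.9997). Neither passed the adjusted threshold of 0.05, which 0% of the genes passed in either comparison. Both had an unadjusted limma p under 0.05, as did 4.47% of the genes in DM-22 and 1.08% in DM+SGLT2i. The SE of 0.43 came from the fit of all 3 groups, so that the DM-22 libraries also widened the DM+SGLT2i interval. With only the compared groups fitted, the SE was 0.48 in DM-22 (limma adjusted p = 0.892) and 0.12 in DM+SGLT2i (adjusted p = 0.9997). Non-overlap upwards, as shown by Slc16a1, was found for 10.8% of the genes in DM-22 and 5.67% in DM+SGLT2i.

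With the 4 diabetic libraries as 1 group, Slc16a1 was 2.24-fold above C (log2 fold change 1.17, SE 0.36, 95% interval 0.30 to 2.03, limma adjusted p = 0.988). In an exact two-sided permutation test of this gene alone the p was 0.0571, the smallest that 4 against 3 libraries allow. Again 0% of the genes passed the adjusted threshold in this comparison, and 2.04% had an unadjusted p under 0.05, Slc16a1 among them. The 4 diabetic libraries lay wholly above the controls for 1.31% of all tested genes, and Slc16a1 was the only member of which this was true. Without DM-22 replicate 2 the log2 fold change was 0.31 in DM-22 and 0.75 in the 4 diabetic libraries together, and without DM-22 replicate 1 it was 1.97 and 1.58, so that its size rested on which library was kept. In DM+SGLT2i it stayed between 1.15 and 1.24 with any 1 library left out. Without C replicate 2 the log2 fold change of Slc16a1 was 1.16 in DM-22 (95% interval -0.07 to 2.38, limma adjusted p = 0.216), 1.21 in DM+SGLT2i (-0.02 to 2.44, adjusted p = 0.283) and 1.18 in the 4 diabetic libraries together (0.12 to 2.24, adjusted p = 0.171).

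Slc16a1 did not differ detectably between treated and untreated diabetic mice, with a log2 difference of 0.05 and a wide 95% interval from -1.08 to 1.19 (limma adjusted p = 0.989). No member passed the adjusted threshold there, as was true of all tested genes (0%), nor the unadjusted one, which 3.91% of the genes passed.

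The promoter of Slc16a1 is shown because this was the member whose diabetic and control libraries separated, and that of Oxct1 beside it because Oxct1 was the steadiest. Both are the 250 bases before the RefSeq start on GRCm38.p6, plus strand, Slc16a1 at chr3:104638414-104638663 and Oxct1 at chr15:4026178-4026427, written 5′ to 3′ with matches to 2 of the motifs searched in capitals:
Slc16a1: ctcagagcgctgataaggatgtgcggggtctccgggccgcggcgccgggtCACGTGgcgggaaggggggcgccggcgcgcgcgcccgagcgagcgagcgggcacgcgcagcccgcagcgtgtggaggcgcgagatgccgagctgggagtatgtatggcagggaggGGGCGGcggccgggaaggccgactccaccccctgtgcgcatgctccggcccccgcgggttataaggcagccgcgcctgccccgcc
Oxct1: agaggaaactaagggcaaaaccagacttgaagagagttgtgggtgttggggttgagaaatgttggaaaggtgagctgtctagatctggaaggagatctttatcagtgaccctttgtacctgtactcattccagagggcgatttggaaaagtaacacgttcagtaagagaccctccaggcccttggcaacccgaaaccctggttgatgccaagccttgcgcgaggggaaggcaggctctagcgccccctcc
The Slc16a1 promoter was 76.4% G and C and the Oxct1 promoter 52%, beside 52.4% for the median promoter. In the Slc16a1 sequence the capitals mark CACGTG, the E-box bound by CLOCK, NPAS2 and BMAL1 as well as by MYC and other factors, starting 200 bases before the start, and GGGCGG, the GC box, starting 85 bases before it. The motifs were searched on both strands from 250 bases before to 50 bases after the start. CACGTG was found in 7.15% of the 32851 windows in the promoter table and GGGCGG in 35.7%. The window of Oxct1 held none of the motifs searched, which were these, CCAAT (37.4% of all windows), TTATGTAA (the D-box, 0.938%), TCAAGGTCA (estrogen-related receptors, 0.423%), GCGCA followed directly by TGCGC (NRF1, 0.971%), and 2 copies of AGGTCA with 1 base between them (PPAR with RXR, 0.0396%). The 2 windows of Bdh1 held only a GC box, in the later of them and on the reverse strand, starting 15 bases after the start. TCAAGGTCA ends in the letters AGGTCA of the repeat, so that these motifs can overlap. A match of letters is a description and not evidence of binding. In all, 3 of the 4 members had an entry, Acat1 being the exception.

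Transcripts of 6 clock genes are given beside Slc16a1, as values without a test. Arntl, which encodes the clock activator BMAL1, had 1.21, 1.77 and 1.62 CPM in C replicates 2, 8 and 9, 6.48 and 19.4 CPM in DM-22 and 5.07 and 8.69 CPM in DM+SGLT2i. Npas2, a partner of BMAL1, had 1.61 to 3.37 CPM in C, 4.19 and 13.2 CPM in DM-22 and 6.65 and 7.24 CPM in DM+SGLT2i. Dbp, a clock output gene, was lower in the diabetic libraries, with 168 to 225 CPM in C, 83.3 and 37.6 CPM in DM-22 and 106 and 66.6 CPM in DM+SGLT2i. None of these 3 genes overlapped between the 4 diabetic libraries and the controls, as was true upwards of 1.31% and downwards of 1.38% of all tested genes, and DM-22 replicate 2, the library with the most Slc16a1, had the most Arntl and Npas2 and the least Dbp. Of the other 3 clock genes examined, Per2 was also lower in all 4 diabetic libraries, by a narrow margin (11.8 to 15.9 CPM, against 16.1 to 47.3 CPM in C), and Per1 and Nr1d1 overlapped between control and diabetic libraries. The hour at which kidneys were taken is not given in the sources used here, and the part of the clock in the Slc16a1 difference was not tested.

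The 3 genes whose pattern over the 7 libraries was most like that of Slc16a1 were Tdrd5 (Pearson r = 0.978), Sytl4 (r = 0.960) and Glud1 (r = 0.953), where Glud1 encodes mitochondrial glutamate dehydrogenase. Npas2 ranked 7th of all tested genes by this measure (r = 0.942), the TCA cycle gene Ogdh 22nd (r = 0.920) and Arntl 35th (r = 0.899). The other clock genes had negative r, Dbp -0.888, Per2 -0.637, Per1 -0.632 and Nr1d1 -0.551. These values describe 7 libraries that share their groups, and no test was attached to them.

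**Figure D2:**
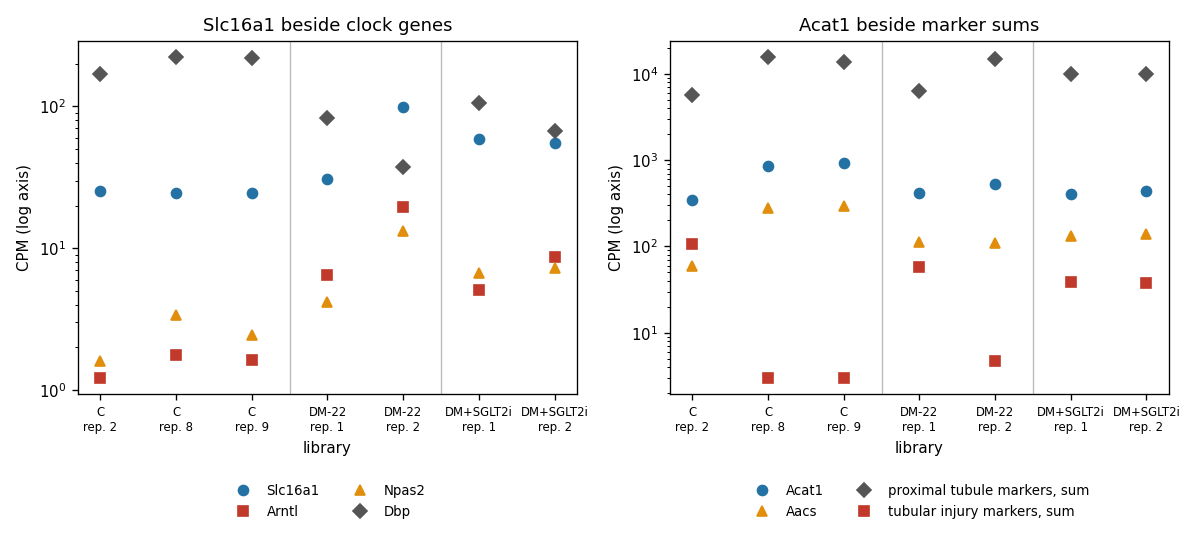
Left, Slc16a1 with the clock genes Arntl, Npas2 and Dbp; right, Acat1 with Aacs and the summed proximal tubule and tubular injury markers; points are single libraries in CPM on log axes, and grey lines part C, DM-22 and DM+SGLT2i. Slc16a1 is highest in DM-22 replicate 2 (98.8 CPM), where Arntl (19.4 CPM) and Npas2 (13.2 CPM) are also highest and Dbp lowest (37.6 CPM), while Acat1 is lowest in C replicate 2 (342 CPM), where the injury sum is highest (108 CPM).

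Acat1 (ENSMUSG00000032047) lies on the minus strand of chromosome 9 at chr9:53580522-53610382 (GRCm38). It encodes the mitochondrial acetoacetyl-CoA thiolase, which completes ketone body use and also acts in isoleucine breakdown. C replicates 8 and 9 had 852 and 915 CPM, whereas C replicate 2 had 342 CPM. The DM-22 libraries had 415 and 523 CPM and the DM+SGLT2i libraries 404 and 439 CPM. All 4 diabetic libraries were thus below C replicates 8 and 9 and above C replicate 2, so that diabetic and control libraries overlapped.

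With all 3 controls, Acat1 averaged 703 ± 314 CPM in C (SD, n = 3), 469 ± 76.5 CPM in DM-22 (n = 2) and 422 ± 25.2 CPM in DM+SGLT2i (n = 2). The log2 fold change from C was -0.47 in DM-22 (SE 0.43, 95% interval -1.51 to 0.57, limma adjusted p = 0.816) and -0.61 in DM+SGLT2i (SE 0.43, -1.65 to 0.43, adjusted p = 0.9997), differences smaller than the spread between the controls. The controls other than replicate 2 averaged 883 ± 43.9 CPM (n = 2). Acat1 then stood at -0.92 against C on the log2 scale in DM-22 (SE 0.18, 95% interval -1.38 to -0.47, limma adjusted p = 0.0904) and -1.07 in DM+SGLT2i (SE 0.18, -1.52 to -0.61, adjusted p = 0.0973). For the 4 diabetic libraries together it was -0.99 (SE 0.16, -1.39 to -0.60, adjusted p = 0.0679), a level 0.502 times that of C replicates 8 and 9. None of these passed the adjusted threshold. Leaving out another control shrank the differences, to -0.26 (without C replicate 8) and -0.21 (without C replicate 9) in DM-22, to -0.41 and -0.36 in DM+SGLT2i and to -0.34 and -0.29 in the 4 diabetic libraries together. The size of the Acat1 difference therefore rested on which controls were used, and in DM-22 it was -0.30 without DM-22 replicate 1.

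The background rose steeply without C replicate 2. The adjusted threshold was then passed by 0.0143% of the genes in DM-22, 0.122% in DM+SGLT2i and 0.200% in the 4 diabetic libraries together, and an unadjusted p under 0.05 was reached by 25.2%, 17.9% and 24.8% of the genes. Acat1 had such a p in each of these comparisons, Slc16a1 in the last of them, and Bdh1 and Oxct1 in none.

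Acat1 differed by less than the spread between libraries in DM+SGLT2i against DM-22, with a log2 difference of -0.14 (95% interval -1.28 to 0.99, limma adjusted p = 0.966). The SE of 0.48 behind this interval came from the fit of all 3 groups, C replicate 2 included. It was 0.18 without C replicate 2 and 0.22 with only the compared groups fitted. The 3 genes most like Acat1 over the 7 libraries were Fastkd1 (r = 0.996), Nxpe3 (r = 0.994) and 2500002B13Rik (r = 0.993). Fastkd1 encodes a mitochondrial protein of RNA metabolism. Of the pathway genes, Aacs (r = 0.919) and Sirt3 (r = 0.916), which encodes a mitochondrial deacetylase, came closest. Summed proximal tubule markers were 5654, 15820 and 13699 CPM in C replicates 2, 8 and 9, 6315 and 15008 CPM in DM-22 and 10068 and 9908 CPM in DM+SGLT2i. In DM-22 replicate 2 the proximal tubule sum lay between those of C replicates 8 and 9, and Acat1 was at 523 CPM. The single markers went both ways in that library. Slc34a1 (9452 CPM, against 8363 and 8096), Slc5a2 and Slc22a6 were above C replicates 8 and 9. Below both were Lrp2 (1838 CPM, against 3597 and 2293), Cubn (520, against 904 and 605) and Slc7a13 (603, against 946 and 912). The injury sum was 4.72 CPM in DM-22 replicate 2, 57.2 CPM in DM-22 replicate 1 and 38.5 and 37.6 CPM in DM+SGLT2i. In DM-22 replicate 1, 52.7 CPM of the sum was Lcn2. Havcr1 (3.98 CPM) and Krt20 (0.522 CPM) were lower there than in DM+SGLT2i replicates 1 and 2 (Havcr1 16.9 and 10.4 CPM, Krt20 9.90 and 1.35 CPM). The part of tissue composition and injury in the Acat1 values was not tested.

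Bdh1 (ENSMUSG00000046598) lies on the plus strand of chromosome 16 at chr16:31422280-31458901 (GRCm38). It encodes the inner mitochondrial membrane dehydrogenase that interconverts acetoacetate and beta-hydroxybutyrate. Its levels were 137, 199 and 203 CPM in C replicates 2, 8 and 9, 203 and 114 CPM in DM-22 and 114 and 161 CPM in DM+SGLT2i. DM-22 replicate 1 matched the higher controls, whereas DM-22 replicate 2 and DM+SGLT2i replicate 1 were the lowest libraries, so that every pair of groups overlapped. Group means were 180 ± 37.2 CPM in C (SD, n = 3), 158 ± 63.2 CPM in DM-22 (n = 2) and 138 ± 33.7 CPM in DM+SGLT2i (n = 2).

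The log2 fold change of Bdh1 from C was -0.22 in DM-22 (SE 0.32, 95% interval -0.98 to 0.53, limma adjusted p = 0.870) and -0.38 in DM+SGLT2i (SE 0.32, -1.14 to 0.37, adjusted p = 0.9997). Without C replicate 2 these values were -0.41 (adjusted p = 0.434) and -0.57 (adjusted p = 0.380). Leaving out DM-22 replicate 2 turned the first of them to 0.20, and the difference between DM+SGLT2i and DM-22, -0.16 (95% interval -0.99 to 0.66, adjusted p = 0.942), turned to 0.25 without DM-22 replicate 1 and to 0.09 without DM+SGLT2i replicate 1. For the 4 diabetic libraries together Bdh1 stood at -0.30 against C (95% interval -0.93 to 0.33, limma adjusted p = 0.988), and at -0.49 without C replicate 2 (adjusted p = 0.305). With other single libraries left out it ran from -0.51 (without DM-22 replicate 1) to -0.09 (without DM-22 replicate 2). The difference in DM+SGLT2i ran from -0.64 (without DM+SGLT2i replicate 2) to -0.13 (without DM+SGLT2i replicate 1). The exact two-sided permutation test of the 4 diabetic libraries against the 3 controls gave p = 0.343 for Bdh1, 0.286 for Acat1 and 0.686 for Oxct1. The genes most like it were Dst (r = 0.973), Mtmr6 (r = 0.965) and Esr1 (r = 0.963), the last encoding estrogen receptor alpha, and Acadm, the medium-chain acyl-CoA dehydrogenase of fatty acid oxidation, ranked 11th (r = 0.940). Across the 7 libraries Bdh1 and Slc16a1 tended to opposite directions (r = -0.753), with DM-22 replicate 2 lowest for Bdh1 and highest for Slc16a1.

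Oxct1 (ENSMUSG00000022186) lies on the plus strand of chromosome 15 at chr15:4026383-4155344 (GRCm38). It encodes the succinyl-CoA transferase that commits acetoacetate to oxidation. Its levels were 1208, 1633 and 1510 CPM in C replicates 2, 8 and 9, 1444 and 1542 CPM in DM-22 and 1176 and 1461 CPM in DM+SGLT2i. C replicate 2 and DM+SGLT2i replicate 1 were the lowest libraries, and every pair of groups overlapped. Those 2 libraries also had the most summed urothelium markers (Upk1b, Upk2, Upk3a), 31.8 and 63.9 CPM, against 0.786 to 8.44 CPM in the other 5. Oxct1 ran opposite to Krt20 (r = -0.950), Upk1b (r = -0.939) and Havcr1 (r = -0.898) over the 7 libraries. The part of urothelium and injury in the Oxct1 values was not tested. Group means were 1450 ± 219 CPM in C (SD, n = 3), 1493 ± 69.7 CPM in DM-22 (n = 2) and 1318 ± 202 CPM in DM+SGLT2i (n = 2).

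The log2 fold change of Oxct1 from C was 0.05 in DM-22 (SE 0.25, 95% interval -0.55 to 0.66, limma adjusted p = 0.973) and -0.13 in DM+SGLT2i (SE 0.25, -0.74 to 0.47, adjusted p = 0.9997). Leaving out C replicate 2 gave -0.07 (adjusted p = 0.865) and -0.26 (adjusted p = 0.589). Treated against untreated diabetic mice, the log2 difference was -0.19 (95% interval -0.85 to 0.47, adjusted p = 0.912). For the 4 diabetic libraries together the interval ran from -0.55 to 0.46 around -0.04, so that an average change of 1 on the log2 scale lay outside it, and without C replicate 2 the difference was -0.17 (adjusted p = 0.633). The genes most like Oxct1 were Ngly1 (r = 0.989), Slc33a1 (r = 0.989) and Gmppa (r = 0.982). Slc33a1 encodes an acetyl-CoA carrier of the endoplasmic reticulum membrane, and Ngly1 a glycan-removing enzyme.

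**Figure D3:**
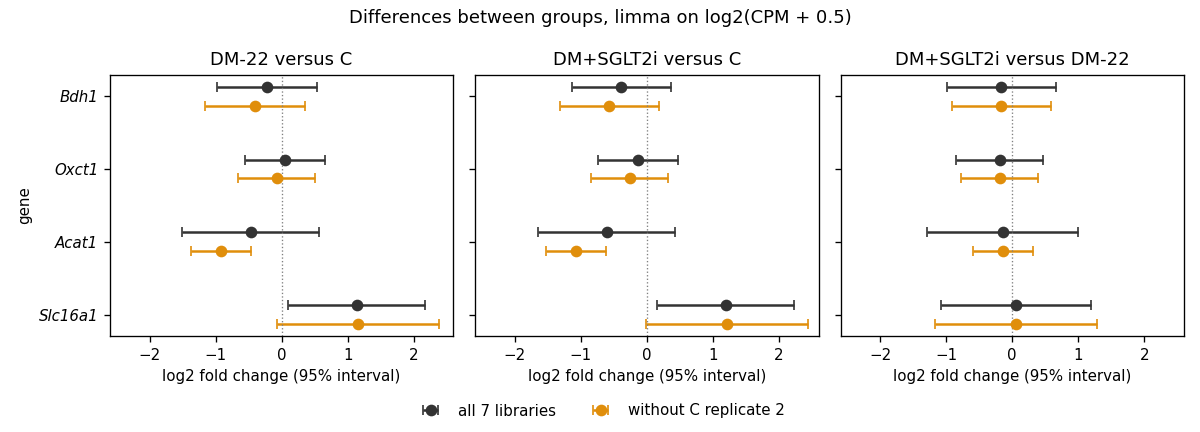
Differences between groups for the 4 members, as log2 fold changes from limma on log2(CPM + 0.5) with 95% intervals, for DM-22 versus C, DM+SGLT2i versus C and DM+SGLT2i versus DM-22; black is the fit of all 7 libraries and orange the fit without C replicate 2. Slc16a1 lies at 1.14 and 1.19 above C, Acat1 moves from -0.47 to -0.92 and from -0.61 to -1.07 when C replicate 2 is left out, and all intervals in the right panel cover 0.

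Without C replicate 2, non-overlap was common among all genes and has to be read against that. DM-22 then lay wholly above C for 29.9% and wholly below for 29.5% of the genes, against 10.8% and 9.29% with all 3 controls, and among the members Slc16a1 was above and Acat1 below. DM+SGLT2i lay wholly above for 28.2% and wholly below for 33.5%, against 5.67% and 6.59%, with Slc16a1 above and Bdh1, Oxct1 and Acat1 all below. The 4 diabetic libraries together lay wholly above for 15.1% and wholly below for 20.8%, against 1.31% and 1.38%, with Slc16a1 above and Acat1 below. Between DM+SGLT2i and DM-22, 21.4% of the genes lay wholly above and 20.0% wholly below, and 0 of the 4 members did either. DM-22 and DM+SGLT2i are compared with the same controls, so that the values of a member in both comparisons share the controls' error.

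Other enzymes of ketone body synthesis and use were listed for 7 of 9 genes, and all 7 were tested. Aacs, which encodes the cytosolic enzyme that activates acetoacetate for lipid synthesis, had 59.8, 277 and 291 CPM in C replicates 2, 8 and 9, 112 and 109 CPM in DM-22 and 133 and 140 CPM in DM+SGLT2i. As for Acat1, C replicate 2 lay below and the other controls above all 4 diabetic libraries. Without C replicate 2, Aacs was the only gene of the lists that passed the adjusted threshold. It was lower in the 4 diabetic libraries together by 1.21 on the log2 scale (SE 0.10, limma adjusted p = 0.0449). In that comparison 0.200% of all tested genes passed, and 20.8% lay wholly below C. With all 3 controls the log2 fold change of Aacs was -0.46 (SE 0.55, limma adjusted p = 0.988). Bdh2, a cytosolic dehydrogenase, was steady at 34.9 to 50.8 CPM. Hmgcll1, a lyase outside the mitochondrion, had 1.62 to 2.42 CPM in C and 3.22 and 3.24 CPM in DM-22. Its log2 fold change was 0.64 (limma adjusted p = 0.804, unadjusted p under 0.05). Such an unadjusted p was reached by 4.47% of all tested genes, and 10.8% lay wholly above C in DM-22. Hmgcll1 was a low gene, with 77 to 179 reads per library. Acat2, the cytosolic thiolase, had 153 to 165 CPM in C, 105 and 201 CPM in DM-22 and 173 and 205 CPM in DM+SGLT2i. Its values and those of Acat3 are uncertain because they are related neighbouring genes on chromosome 17 and the counting could split reads between them, which was not tested.

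Transport genes were listed for 7 of 8, all tested, and 0 passed the adjusted threshold with either set of controls. Slc16a7, which encodes the high-affinity carrier MCT2, had 188, 85.2 and 72.6 CPM in C replicates 2, 8 and 9, 265 and 144 CPM in DM-22 and 128 and 189 CPM in DM+SGLT2i. Its log2 fold change from C in DM-22 was 0.89 (adjusted p = 0.804) with all 3 controls and 1.31 (adjusted p = 0.103) without C replicate 2. Slc16a6 (MCT7), a carrier of beta-hydroxybutyrate, had 13.6, 10.6 and 12.6 CPM in C, 9.02 and 17.9 CPM in DM-22 and 23.9 and 24.9 CPM in DM+SGLT2i. It was above every other library in both treated libraries, with log2 differences of 0.97 from C (SE 0.29, limma adjusted p = 0.9997) and 0.91 from DM-22 (SE 0.31, adjusted p = 0.881). Of all tested genes, 5.67% lay wholly above C in DM+SGLT2i and 21.4% wholly above DM-22. Bsg, the chaperone that carries MCT1 to the membrane, was abundant at 473 to 779 CPM and did not follow Slc16a1, its highest library being DM-22 replicate 1 (779 CPM). Slc5a12, a sodium-coupled lactate carrier of the proximal tubule, ranged from 56.2 CPM in C replicate 2 to 405 CPM in C replicate 8, and Slc5a8, its ketone-carrying relative, from 274 to 523 CPM. Slc16a3 (MCT4) was low, at 0.67 to 6.16 CPM.

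Among regulators, 6 of 8 were listed and 5 tested, and 0 passed the adjusted threshold with either set of controls. Ppara, the fatty acid sensor that drives ketone body synthesis in liver, had 21.2, 86.9 and 79.9 CPM in C replicates 2, 8 and 9, 33.5 and 57.0 CPM in DM-22 and 68.2 and 43.4 CPM in DM+SGLT2i. Sirt3 had 51.7, 93.1 and 94.7 CPM in C, 64.7 and 85.3 CPM in DM-22 and 69.7 and 66.6 CPM in DM+SGLT2i. Hcar2, a receptor for beta-hydroxybutyrate, stayed under 1 CPM in every library and was not tested.

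The other PPAR alpha targets, 8 of 8 tested, had a median log2 fold change from C of 0.04 in DM-22 and 0.86 in DM+SGLT2i, beside medians over all tested genes of 0.0045 and -0.013. The list's medians were 0.62 and 0.92 without C replicate 2. Of these 8, 0 passed the adjusted threshold in either group, and 3 of 8 lay wholly above C in DM+SGLT2i, namely Pdk4, Angptl4 and Acot1, beside 5.67% of all tested genes. In DM-22, 0 of 8 did, beside 10.8%. Without C replicate 2 it was 6 of 8 in DM+SGLT2i, beside 28.2%, and 1 of 8 in DM-22, beside 29.9%. Against DM-22, 2 of 8 lay wholly above in DM+SGLT2i and 0 wholly below, beside 21.4% and 20.0% of all tested genes. High values were not confined to treated libraries. DM-22 replicate 1 had 128 CPM of Pdk4 and 187 CPM of Acot1, against 39.6 and 24.1 CPM and 185 and 174 CPM in DM+SGLT2i. DM-22 replicate 2 had 9.13 CPM of Pdk4 and 90.0 CPM of Acot1. Angptl4, a secreted inhibitor of lipoprotein lipase, had 28.1 to 35.7 CPM in C, 72.1 and 28.1 CPM in DM-22 and 80.7 and 50.1 CPM in DM+SGLT2i (log2 fold change in DM+SGLT2i 1.02, SE 0.40, limma adjusted p = 0.9997). The higher of its treated values came from DM+SGLT2i replicate 1, the library with 895 CPM of summed adipose markers against 4.64 CPM in DM+SGLT2i replicate 2, and their part in the values of this list was not tested. Cyp4a14, a fatty acid hydroxylase, spread from 12.4 to 957 CPM within C alone. The 13 genes of fatty acid oxidation had medians of 0.10 and 0.05 and the 8 genes of the TCA cycle medians of 0.09 and 0.09 in DM-22 and DM+SGLT2i, and 0 of these 21 genes passed the adjusted threshold. With all 3 controls, Slc25a20, the mitochondrial carnitine carrier, was the only gene of the fatty acid oxidation list with an unadjusted p under 0.05 in DM-22. Its log2 fold change was 0.40 (limma adjusted p = 0.804), and 4.47% of all tested genes had such a p. Without C replicate 2, 3 of these 13 genes had one, beside 25.2% of all tested genes.

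**Figure D4:**
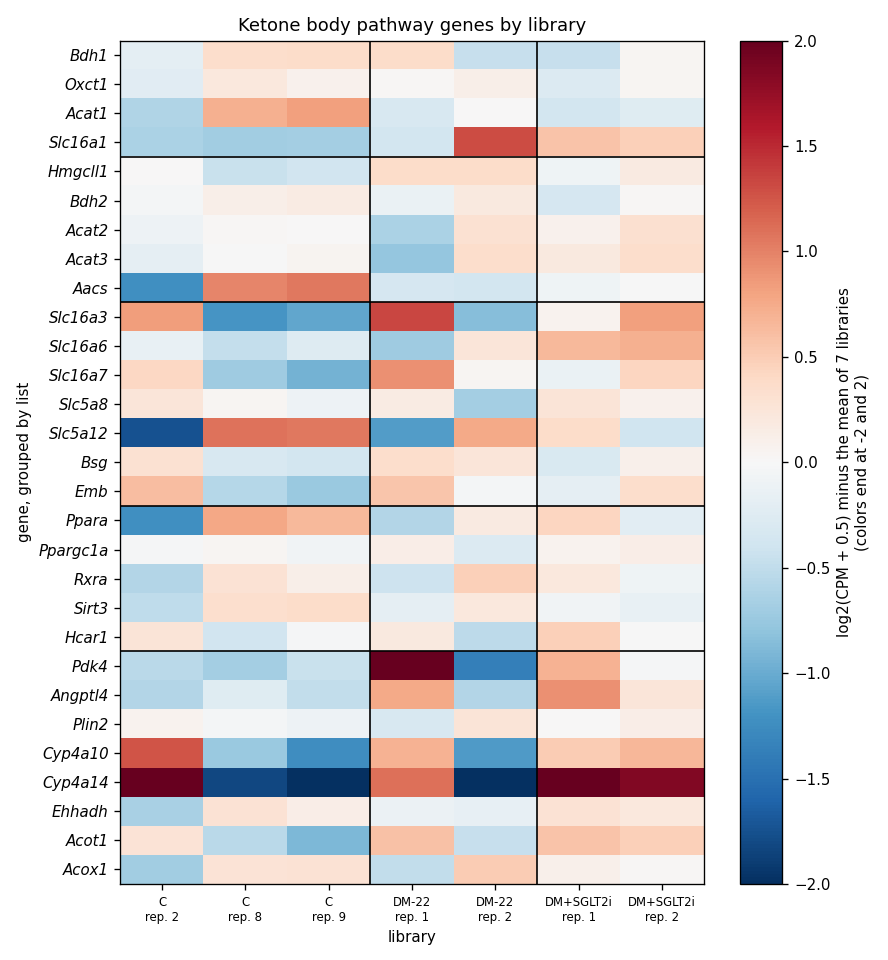
Members, other ketone body enzymes, monocarboxylate transport genes, regulators and other PPAR alpha targets (rows, parted by black lines) in the 7 libraries (columns), colored by log2(CPM + 0.5) minus the gene's mean over the libraries, with colors ending at -2 and 2. Slc16a1 is low in all 3 controls, Acat1 and Aacs are high in C replicates 8 and 9 and low in C replicate 2, and Slc16a6 is highest in the 2 DM+SGLT2i libraries (23.9 and 24.9 CPM).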

How the data were processed

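The sample labels gave the groups and replicate numbers, and every column was used (0 left out). The members and lists were chosen with earlier results of these data known. The authors deposited log2 values for 17537 genes, which are TMM-normalized CPM to which a constant worth on average 2 reads had been added. The submitters' processing notes name bcl2fastq, FastQC, Trim Galore, STAR, edgeR and mm10, with no versions. The design had assumed CPM, but the values held negative numbers and a shared floor of -4.66. CPM were therefore recovered by subtracting that constant (0.0395 CPM), and reads came out whole for 100% of values (tolerance 0.05). The smallest gene total was 10 reads, so that rarer genes cannot be described.

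A gene was tested if it reached 1 CPM in 2 or more libraries, which left 13976 genes. The test was limma (version 3.58.1, R 4.3.3; lmFit, then eBayes with trend) on log2(CPM + 0.5), so that fold changes of low genes are understated. The 3 groups shared a single fit. All p-values are two-sided, with Benjamini-Hochberg adjustment over all genes tested and a threshold of 0.05, and the script was tested on simulated data. Named genes were the members, the genes of the lists and, for each member, the 3 tested genes with the highest Pearson r over the 7 libraries. Clock, tubule, injury, urothelium and adipose genes are markers used to describe the libraries. All 17537 identifiers were found in GENCODE M21 (GRCm38), which gave positions and exon lengths, and promoters came from RefSeq. Protein sequences were not used here, and some genes of the ketone body enzyme list are not reported here. Other computations used Python 3.11.15, pandas 2.3.3 and scipy 1.17.1. Alternatives were other pseudocounts (2 CPM, or the deposited values), filters (none, or 5 CPM), normalizations, tests and sets of libraries. The combined removal of C replicate 2 and DM+SGLT2i replicate 1 was added after the values were seen. No pair of replicates differed by as little as sampling noise, with chi-square per gene from 43.6 to 478. The study's methods describe mice of both sexes, whereas the labels name males.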

Additional observations from a re-analysis of the deposited data

How the results depend on the processing

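No member passed the adjusted threshold in any refit, the smallest adjusted p from limma being 0.0679 (Acat1, all diabetic versus C, without C replicate 2). Of the member differences refitted without libraries, 117 kept their direction and 11 changed sign. Under the other settings 146 kept it and 2 changed sign. Both were Oxct1 in DM-22 versus C, at -0.037 with library totals in place of TMM and -0.056 after quantile normalization. Many of these refits could not change a difference. Leaving out a library of a group not compared left it identical. So did other filters, a fit without the trend, a fit of only the compared groups and a block by replicate number. The counts that kept direction therefore do not measure robustness. Without C replicate 2 and DM+SGLT2i replicate 1 together, Oxct1 in DM-22 versus C was -0.074 and Bdh1 in DM+SGLT2i versus DM-22 was 0.088. With 1 library left out at a time, log2 fold changes that changed sign ranged as follows. In DM-22 versus C, Bdh1 ranged from -0.64 to 0.20 and Oxct1 from -0.074 to 0.14. In DM+SGLT2i versus C, Oxct1 ranged from -0.29 to 0.022. In DM+SGLT2i versus DM-22, Bdh1 ranged from -0.58 to 0.25, Acat1 from -0.31 to 0.022 and Slc16a1 from -0.78 (without DM-22 replicate 1) to 0.89 (without DM-22 replicate 2). In all diabetic versus C, Oxct1 ranged from -0.17 to 0.050. The number of genes past the threshold ranged from 0 to 2 in DM-22 versus C, from 0 to 17 in DM+SGLT2i versus C and from 0 to 28 in all diabetic versus C, each time reaching its highest without C replicate 2 and being 0 under every other setting; the cause was not tested. The cause of the sign changes was not tested either.

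A fit of DM+SGLT2i versus DM-22 also took the replicate number as a block, which the labels do not say pairs mice. The log2 differences stayed the same (Bdh1 -0.16, Oxct1 -0.19, Acat1 -0.14, Slc16a1 0.05). The balanced layout fixes this in advance, so it is no sign of robustness. This replicate block left the number of genes past the threshold at 0. The deviations of same-numbered libraries from their group means had r = -0.0412 across tested genes. This shows no shared shift, but with 2 libraries per group it cannot tell whether the numbers paired mice. C shares fewer than 2 numbers with either diabetic group, so no block was fitted there. Each member had at least 1151 reads in every library, and the small number of libraries limits the precision.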
